A study of Sus scrofa with 6 samples.

Results

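The epidermal growth factor receptor gene EGFR, 4 genes of its ligands (AREG, EREG, HBEGF and TGFA) and 5 genes of feedback inhibitors of MAPK signaling (DUSP1, DUSP4, DUSP5, DUSP6 and SPRY4) were followed in IPEC-J2 cells given chenodeoxycholic acid (CDCA), a primary bile acid. They were chosen by gene name and are 10 of the 31908 Ensembl pig gene IDs in the deposited table, with 24 of its 63041 listed transcripts. IPEC-J2 cells are a pig cell line widely used as a model of the small intestine's lining. RNA was sequenced from 3 libraries of cells given PBS (CON) and 3 libraries of cells given 50 μM CDCA, all collected at 24 h. The study calls the libraries biological replicates, but nothing in the labels says that they came from separate cultures, so p-values measure the spread between these libraries, which may be in part technical. The comparison asks how the transcripts of this pathway differed after 1 dose and 1 time of CDCA.

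EGFR is a receptor tyrosine kinase on the surface of epithelial cells. Its ligands are made as membrane proteins and are released by metalloproteases, and the bound receptor passes the signal through adaptors and RAS to the kinases RAF, MEK and ERK. ERK in turn induces genes whose products damp the pathway: dual-specificity phosphatases (DUSPs), which remove the activating phosphates from MAP kinases, and Sprouty proteins, which act between the receptor and RAF. In the gut epithelium this pathway is known for its role in growth and repair.

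In CDCA, AREG and HBEGF rose and TGFA fell, while DUSP4 and DUSP5 rose, by ratios of 1.75 and 1.14, and DUSP6 fell slightly. The results for DUSP5 and DUSP6 were lost in most alternatives. EGFR itself was weakly listed, and its groups overlapped. EREG, DUSP1 and SPRY4 were near or at 0 in both groups. Of the 10 genes, 7 had a mean of at least 1 TPM (a transcript's share of its library, scaled to 1000000) over the 6 libraries and were tested, and 3 were not. Values are the authors' TPM, summed over the listed transcripts of each gene, and errors after ± are the SD of 3 libraries. TPM are per transcript length, so levels can be set side by side between genes only as far as the listing holds their transcripts. The test was limma on log2(TPM + 1) across the 8708 genes that passed the same filter, with Benjamini-Hochberg FDR, and calls needed an FDR below 0.05 with a log2 fold change beyond 1 in either direction. The pseudocount makes the fold change of a low gene smaller than its ratio of mean TPM. Since the cells were sequenced in bulk, fewer cells that express a gene and less RNA per cell cannot be told apart.

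Among the 7 tested genes, AREG and HBEGF were called higher in CDCA, where 3.51% of all tested genes were, and none was called lower, where 3.90% of all tested genes were. By the FDR alone, 4 genes passed with a higher value (AREG, HBEGF, DUSP4 and DUSP5), beside 29.3% of all tested genes, and 2 with a lower one (TGFA and DUSP6), beside 23.9%. Every CDCA library lay above every CON library for the same 4 genes, an order seen in 33.7% of all tested genes, and below for the same 2, an order seen in 27.8%. The median log2 fold change of the 7 genes was 0.39, that of EGFR, against 0.05 over all tested genes. Since so many of all tested genes passed in either direction, a gene's passing says little by itself, and its values and the size of its change are given for each gene in turn.

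**Figure D1:**
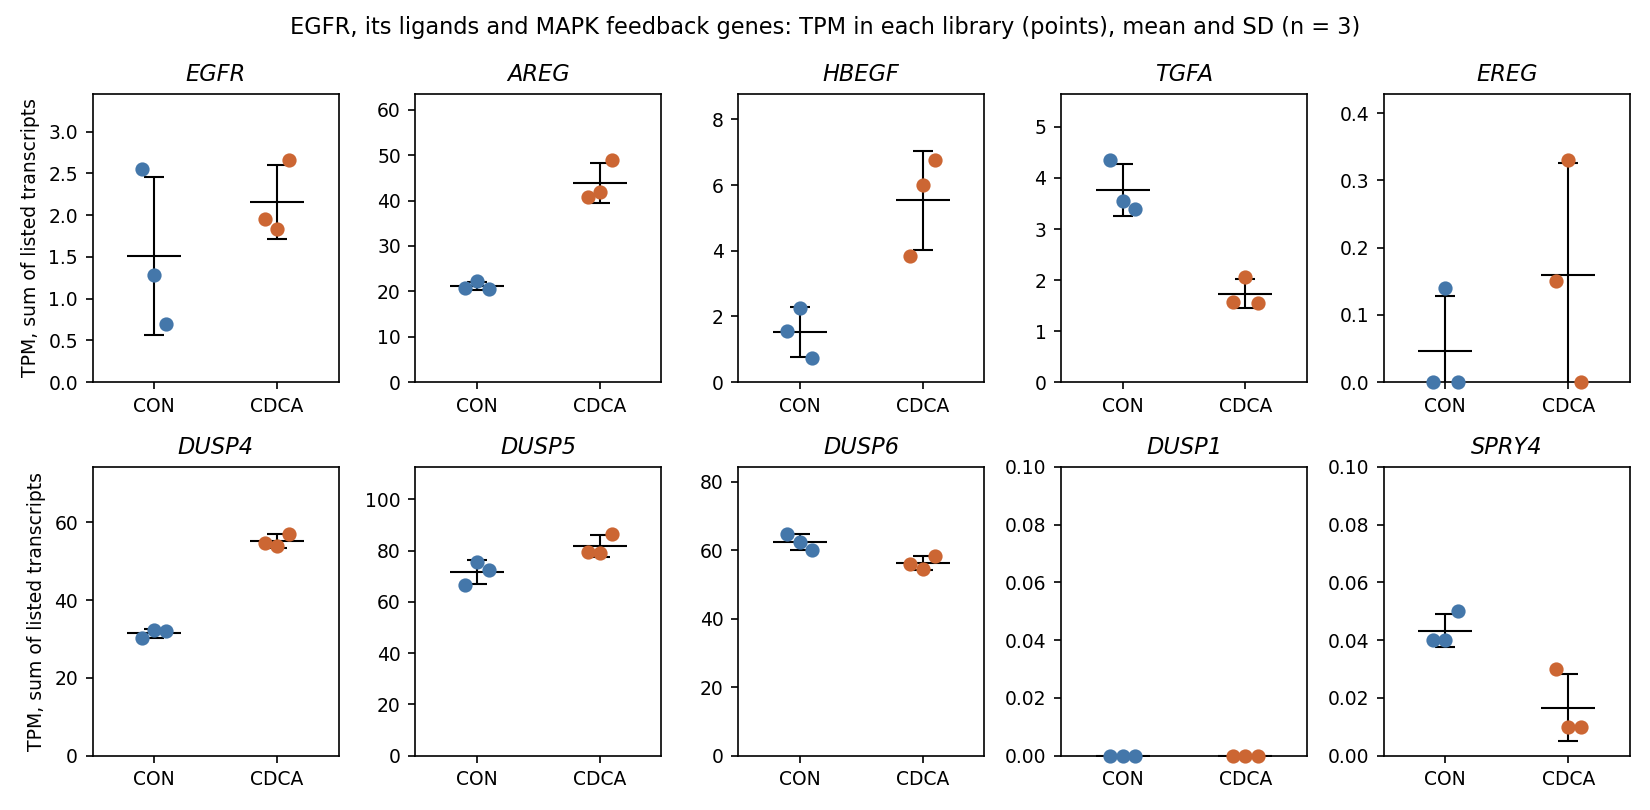
TPM (y axis, each panel on its own scale from 0) of the 10 genes in the CON and CDCA libraries. Points are libraries, lines are the mean and the SD (n = 3), and SD bars that would pass below 0 are cut there. The CDCA libraries lie above the CON libraries for AREG, HBEGF, DUSP4 and DUSP5 and below them for TGFA, DUSP6 and SPRY4, while the groups overlap for EGFR and EREG and DUSP1 stays at 0.

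The libraries themselves bear on these values in 1 way. The mtDNA-encoded mRNAs made up 13.8% to 15.0% of the listing in CON and 2.90% to 3.45% in CDCA, and TPM are shares of a total. With totals of the listing computed without these mRNAs, the median log2 fold change over all tested genes shifted by -0.15. That setting is therefore given beside those of the 10 genes whose result it moves, and as counts for those lists of other pathway genes whose counts it moves. Each library's listing held 351770 to 366073 TPM in all, so transcripts outside the listing are not covered. The epithelial keratins KRT8 and KRT18 and the epithelial marker EPCAM were abundant in both groups (KRT8 at 226 and 208 TPM, KRT18 at 65.6 and 75.1 TPM and EPCAM at 122 and 160 TPM in CON and CDCA). EPCAM rose (log2 fold change 0.39, limma FDR 0.0015), as did KRT18 (0.19, limma FDR 0.013), whose log2 fold change was 0.02 (limma FDR 0.75) with totals without the mtDNA-encoded mRNAs, while KRT8 then passed as lower (-0.30, limma FDR 0.0092). In contrast, CDH1 (0.397 and 0.533 TPM) and VIL1 (0.357 and 0.137 TPM), which also define intestinal epithelium, were listed under 1 TPM. The summed TPM of the 6 matched epithelial markers was 624 to 648 in CON and 1182 to 1322 in CDCA, mostly through CLDN4 (225 to 806 TPM), a tight junction gene. The 4 leukocyte markers summed to 1.25 to 2.54 TPM in CON and 1.89 to 2.14 TPM in CDCA, with PTPRC at most at 0.01 TPM and with CD14, whose groups did not overlap, at means of 0.997 and 1.48 TPM (limma FDR 0.071). The 6 fibroblast markers summed to 1.34 to 1.82 and 0.93 to 1.10 TPM, with LUM at 0, and the 3 endothelial markers to 2.20 to 2.69 and 1.87 to 2.33 TPM, of which PECAM1 fell from a mean of 1.92 to 1.22 TPM (log2 fold change -0.39, limma FDR 0.025). KDR, which was under the filter, went the other way without overlap, from a mean of 0.43 to 0.757 TPM, and the groups overlapped for CDH5. The part of these markers in the results was not tested.

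EGFR (ENSSSCG00000022126), the receptor, was listed in CON at 2.55, 1.28 and 0.70 TPM, and in CDCA at 1.96, 1.84 and 2.66 TPM. The highest CON library lay among the CDCA libraries, so the groups overlapped. Mean TPM was 1.51 ± 0.95 in CON and 2.15 ± 0.44 in CDCA (SD, n = 3 each), and the log2 fold change was 0.39 (SE 0.27, 95% interval -0.26 to 1.04, limma FDR 0.27). This interval takes in both no difference and a doubling. A single library decided the result: without CON replicate 1 the log2 fold change was 0.67 (limma FDR 0.033), and without CON replicate 3 it was 0.14 (limma FDR 0.65). Of the 6 listed transcripts, 1 held 78.9% of the TPM, and it carried the spread in CON, at 2.09, 0.76 and 0.47 TPM. By listed level EGFR was among the lowest of the tested genes, with 14.3% of them at a lower mean TPM.

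AREG (ENSSSCG00000008963) encodes amphiregulin, a ligand of EGFR that is made by epithelial cells and many immune cells. It was listed in CON at 20.82, 22.23 and 20.49 TPM, and in CDCA at 40.81, 41.82 and 48.92 TPM. The CON libraries lay within a narrow range, and each CDCA library was far above it. The mean rose from 21.2 ± 0.92 to 43.9 ± 4.4 TPM (SD, n = 3 each), a ratio of 2.07. The log2 fold change was 1.01 (SE 0.08, 95% interval 0.83 to 1.20, limma FDR 8.5e-05), which 96.1% of all tested genes lay below. AREG was thus at the limit for a call: it was called in 10 of 14 alternatives and passed the FDR in all 14, and its log2 fold change fell under the limit with totals without the mtDNA-encoded mRNAs (0.84), with a scaling to the same median ratio (0.96), without CON replicate 3 (0.99) and without CDCA replicate 3 (0.93). Both listed transcripts were higher, the one with 98.2% of the TPM by a ratio of 2.08 and the other by 1.75. Among the 4 ligand genes, AREG had by far the highest listed level in both groups.

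HBEGF (ENSSSCG00000014362) encodes heparin-binding EGF-like growth factor, which binds both EGFR and ERBB4. It was listed in CON at 1.57, 2.26 and 0.75 TPM, and in CDCA at 3.85, 6.01 and 6.76 TPM. Although the spread within each group was wide for so low a level, the lowest CDCA library was above the highest CON library. The mean rose from 1.53 ± 0.76 to 5.54 ± 1.5 TPM (SD, n = 3 each), a ratio of 3.63. The log2 fold change of 1.39 (SE 0.27, 95% interval 0.75 to 2.03, limma FDR 0.0050) was the largest of the 7 tested genes, and 98.3% of all tested genes lay below it. It was called in all 14 alternatives, with log2 fold changes of 1.15 to 1.88. Nearly all of the gene's TPM (98.5%) lay in 1 of its 2 listed transcripts. The wide interval means that HBEGF and AREG cannot be ranked by the size of their change.

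TGFA (ENSSSCG00000008326), the gene of transforming growth factor alpha, went the other way. It was listed in CON at 4.35, 3.55 and 3.39 TPM, and in CDCA at 1.58, 2.07 and 1.56 TPM, on 1 listed transcript. Each CDCA library was below each CON library. The mean fell from 3.76 ± 0.51 to 1.74 ± 0.29 TPM (SD, n = 3 each), a ratio of 0.461. On the log2(TPM + 1) scale the change was -0.80 (SE 0.12, 95% interval -1.10 to -0.50, limma FDR 0.0019), which fell short of a call, and 6.75% of all tested genes had a lower value. The pseudocount sets this side of the limit: with 0.1 TPM in place of 1 TPM it was -1.08 and TGFA was called lower, while the FDR was under 0.05 in all 14 alternatives.

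EREG (ENSSSCG00000038185), the gene of epiregulin, was not tested. It was listed in CON at 0, 0.14 and 0 TPM, and in CDCA at 0.15, 0.33 and 0 TPM. A library of each group was at 0 and the groups overlapped, and a fit without the filter gave a limma FDR of 0.48. On the pig assembly Sscrofa11.1 of RefSeq, EPGN, EREG, AREG and BTC lie next to each other in this order, so a weakly listed ligand gene (EREG) and a well listed one (AREG) are neighbours. BTC, the gene of betacellulin and the other neighbour of AREG, was at 5.43 ± 0.68 TPM in CON and 5.23 ± 0.28 TPM in CDCA (SD, n = 3 each) (log2 fold change -0.04, limma FDR 0.74). The gene ID of EPGN was not matched by symbol, so its value is not given here.

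The mixture of ligand transcripts therefore differed between the groups. The 4 ligand genes together summed to 26.7, 28.2 and 24.6 TPM in CON and to 46.4, 50.2 and 57.2 TPM in CDCA, a ratio of 1.93 between the means. AREG held 80.0% ± 2.8 (SD, n = 3) of this sum in CON and 85.6% ± 2.4 (SD, n = 3) in CDCA. The share of HBEGF was 5.65% ± 2.5 (SD, n = 3) in CON and 10.7% ± 2.1 (SD, n = 3) in CDCA, and that of TGFA was 14.2% ± 1.9 (SD, n = 3) in CON and 3.42% ± 0.70 (SD, n = 3) in CDCA. Among these 4 genes, TGFA had the second highest listed level in CON and HBEGF in CDCA, and BTC, which is not in the sum, was above TGFA in CON.

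A ratio of 2 genes within a library does not depend on how that library was scaled. These ratios were chosen after the values were seen and are given without a test. AREG over TGFA was 4.79, 6.26 and 6.04 in CON and 25.8, 20.2 and 31.4 in CDCA. HBEGF over TGFA was 0.361, 0.637 and 0.221 in CON and 2.44, 2.90 and 4.33 in CDCA, so that HBEGF was below TGFA in each CON library and above it in each CDCA library. AREG over HBEGF was 13.3, 9.84 and 27.3 in CON and 10.6, 6.96 and 7.24 in CDCA, and here the groups overlapped.

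**Figure D2:**
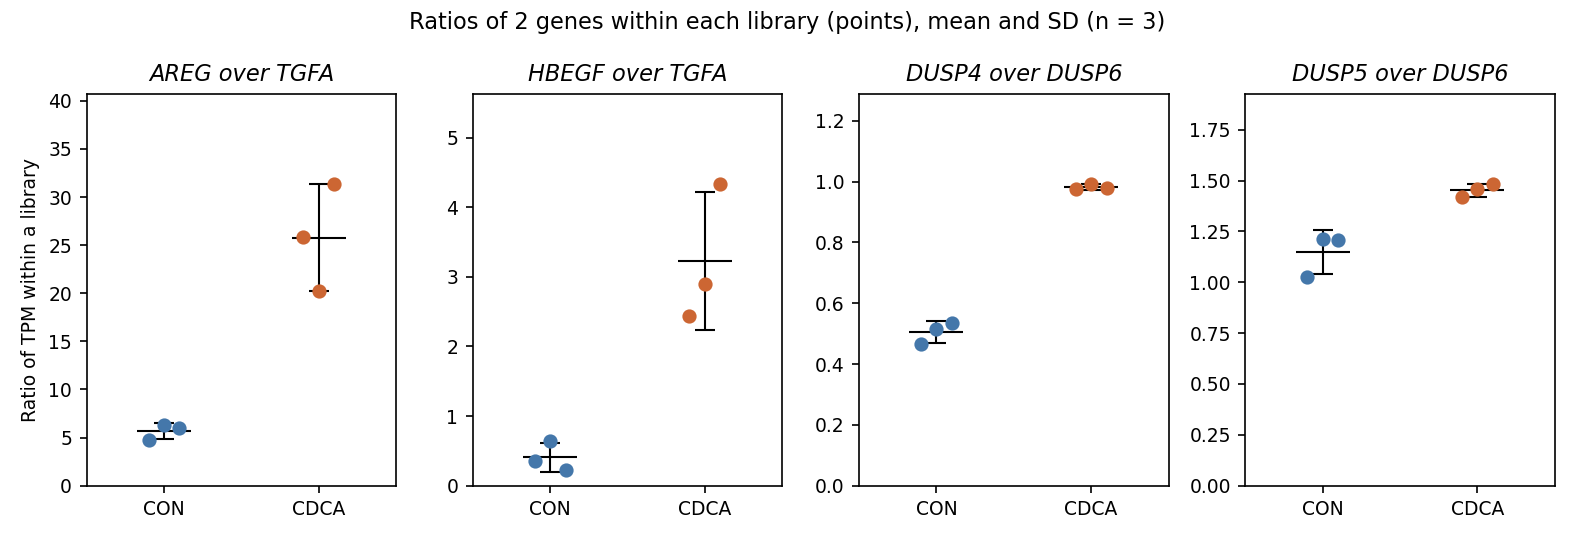
Ratio of the TPM of 2 genes within each library (y axis, no unit, each panel on its own scale from 0) for AREG over TGFA, HBEGF over TGFA, DUSP4 over DUSP6 and DUSP5 over DUSP6 in CON and CDCA. Points are libraries and lines are the mean and the SD (n = 3); in all 4 panels each CDCA library lies above each CON library, with DUSP4 over DUSP6 near 0.506 in CON and 0.982 in CDCA.

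DUSP4 (ENSSSCG00000015850), a phosphatase of the nucleus that acts on ERK and other MAP kinases, was well separated between the groups. It was listed in CON at 30.21, 32.21 and 32.18 TPM, and in CDCA at 54.62, 53.95 and 57.13 TPM. Both groups were tight and far apart. The mean rose from 31.5 ± 1.1 to 55.2 ± 1.7 TPM (SD, n = 3 each), a ratio of 1.75, and on the log2(TPM + 1) scale the change was 0.79 (SE 0.05, 95% interval 0.68 to 0.90, limma FDR 3.1e-05). It passed the FDR in all 14 alternatives and was called in none of them, with log2 fold changes of 0.62 (totals without the mtDNA-encoded mRNAs) to 0.91 (highest listed transcript). The difference lay in the leading transcript, with 83.3% of the TPM, which was at 24.8 ± 1.8 TPM in CON and 47.5 ± 0.82 TPM in CDCA (SD, n = 3 each). The other 2 listed transcripts had ratios of 1.18 and 1.10, with values that overlapped between the groups.

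DUSP5 (ENSSSCG00000040815), a nuclear phosphatase of ERK, had the highest listed level of the 10 genes in both groups. In CON it was listed at 66.44, 75.60 and 72.57 TPM, and in CDCA at 79.53, 79.25 and 86.67 TPM. The groups did not overlap, but the gap between them was smaller than the range within either. Mean TPM was 71.5 ± 4.7 in CON and 81.8 ± 4.2 in CDCA (SD, n = 3 each), with a log2 fold change of 0.19 (SE 0.06, 95% interval 0.04 to 0.34, limma FDR 0.037). This rise was at the edge of the test. The FDR was 0.05 or more in 10 of 14 alternatives, among them those without CON replicate 1 (0.085), CON replicate 3 (0.066), CDCA replicate 1 (0.062), CDCA replicate 2 (0.055) and CDCA replicate 3 (0.11), and with totals without the mtDNA-encoded mRNAs the log2 fold change was 0.02 (limma FDR 0.82).

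DUSP6 (ENSSSCG00000037910), the cytoplasmic phosphatase that acts mainly on ERK, was listed in CON at 64.83, 62.37 and 60.04 TPM, and in CDCA at 56.01, 54.38 and 58.43 TPM, on 1 listed transcript. Each CDCA library was below each CON library by a small margin. Mean TPM was 62.4 ± 2.4 in CON and 56.3 ± 2.0 in CDCA (SD, n = 3 each), with a log2 fold change of -0.15 (SE 0.05, 95% interval -0.26 to -0.03, limma FDR 0.036). The FDR was 0.05 or more in 8 of 14 alternatives, among them those without CON replicate 1 (0.092), CON replicate 2 (0.091), CDCA replicate 1 (0.096) and CDCA replicate 2 (0.10). With totals without the mtDNA-encoded mRNAs, DUSP6 was further down, at -0.32 (limma FDR 0.0020).

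The 3 well listed phosphatase genes thus did not move as a block. DUSP4 over DUSP6 was 0.466, 0.516 and 0.536 in CON and 0.975, 0.992 and 0.978 in CDCA, close to equal levels. DUSP5 over DUSP6 was 1.02, 1.21 and 1.21 in CON and 1.42, 1.46 and 1.48 in CDCA. In CON the order of the levels was DUSP5, DUSP6 and DUSP4. In CDCA, DUSP5 stayed the highest. The ranges of DUSP4 (53.95 to 57.13 TPM) and DUSP6 (54.38 to 58.43 TPM) overlapped, but within each CDCA library DUSP4 was slightly below DUSP6. This difference between the 2 genes was not tested.

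DUSP1 (ENSSSCG00000016991), an immediate-early phosphatase gene that serum and stress induce in many cells, was listed at 0 in all 6 libraries on its 1 listed transcript. Since CDH1 and VIL1 were also under 1 TPM in this listing, this says only that DUSP1 is listed at 0. SPRY4 (ENSSSCG00000036322), a Sprouty gene, was listed in CON at 0.04, 0.04 and 0.05 TPM, and in CDCA at 0.03, 0.01 and 0.01 TPM over 4 listed transcripts. These values lie within a few units of the last decimal of the listing, and although the groups did not overlap, no fold is given. SPRY4 was not tested, and a fit without the filter gave it a limma FDR of 0.13.

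**Figure D3:**
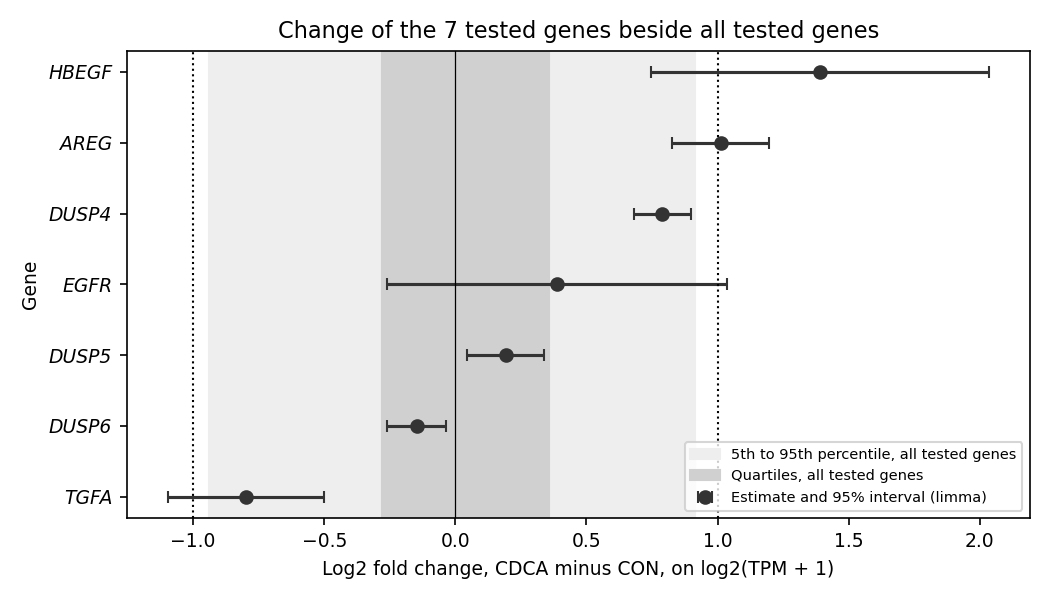
Log2 fold change of the 7 tested genes (x axis, CDCA minus CON on log2(TPM + 1)), with points for the limma estimate and bars for its 95% interval. The dark band spans the quartiles of all 8708 tested genes (-0.28 to 0.36), the light band spans their 5th to 95th percentiles (-0.94 to 0.91), and dotted lines mark the limit of 1 in size; HBEGF and AREG lie to the right of both bands, DUSP4 and TGFA lie in the light band, and DUSP5 and DUSP6 lie inside the dark one.

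Beside the change over all tested genes, the 7 genes fell into unlike places. HBEGF and AREG lay above the range of -0.94 to 0.91 between the 5th and 95th percentiles that the plot of fold changes shows as a light band. DUSP4 and TGFA were inside that range and outside the quartiles of -0.28 and 0.36. EGFR lay just above the upper quartile with an interval that reached below 0. DUSP5 and DUSP6 lay within the quartiles, with 62.2% and 34.6% of all tested genes at a lower log2 fold change.

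The other genes of the pathway were taken from lists written from general knowledge. Of 56 genes, DUSP7 and EPGN were not matched by symbol, and of the 55 gene IDs of the others 41 were tested. By limma, 12 were higher and 8 lower with an FDR under 0.05 and 21 did not pass, and 1 was called lower (SPRY1) and none higher. These counts stand beside the 29.3% and 23.9% of all tested genes that passed in each direction, and the median of the 41 genes was 0.09 against 0.05. With totals without the mtDNA-encoded mRNAs, 11 were higher and 13 lower, beside 19.0% and 33.1% of all genes tested under that setting.

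Among the receptors that pair with EGFR, ERBB2 and ERBB3 both fell and ERBB4 was not tested. ERBB3, which binds neuregulins, went from 17.5 ± 0.95 to 12.3 ± 2.4 TPM (SD, n = 3 each), a log2 fold change of -0.49 (limma FDR 0.018). Its FDR was 0.05 or more without CON replicate 1 and without CON replicate 2, at most 0.055. ERBB2, the receptor with no ligand of its own, went from 7.22 ± 0.25 to 5.64 ± 0.23 TPM (log2 fold change -0.31, limma FDR 0.0074). The log2 fold change of ERBB2 was -0.46 to -0.28 in the 14 alternatives, but its highest listed transcript did not pass (limma FDR 0.21). ERBB3 was the ERBB gene of highest listed level in both groups.

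Of 3 tested genes of ligand release, 1 rose, 1 fell and 1 did not pass. ADAM17, the protease that sheds AREG, HBEGF and TGFA from the membrane, rose from 1.25 ± 0.30 to 3.03 ± 0.82 TPM (SD, n = 3 each). Its log2 fold change was 0.83 (limma FDR 0.0096), and it was called in 4 alternatives: a pseudocount of 0.1 TPM (1.21), listed TPM rescaled to 1000000 (1.08), the highest listed transcript (1.03) and without CDCA replicate 3 (1.00). ADAM10, the related protease that sheds other ligands such as betacellulin, went from 31.0 ± 1.7 TPM to 26.8 ± 1.8 TPM (log2 fold change -0.20, limma FDR 0.038). The FDR of ADAM10 was 0.05 or more in 8 of the 14 alternatives, among them those without CON replicate 1, CON replicate 2, CDCA replicate 1 and CDCA replicate 2, at most 0.12.

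Of the 8 tested adaptor and RAS genes, 2 rose, none fell and 6 did not pass. With totals without the mtDNA-encoded mRNAs, 2 passed as higher and 3 as lower, GRB2 (-0.30, limma FDR 0.010), named after its values were seen, among the latter. Both that rose encode the exchange factors that load RAS with GTP. SOS2 went from 5.73 ± 0.36 to 8.95 ± 0.61 TPM (log2 fold change 0.56, limma FDR 0.0011) and SOS1 from 13.3 ± 1.2 to 18.9 ± 1.4 TPM (0.48, limma FDR 0.0032).

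Among the kinases, MAP2K2, which encodes the kinase MEK2, rose from 52.9 ± 0.015 to 84.3 ± 2.6 TPM (0.66, limma FDR 2.9e-05), and BRAF rose from 4.29 ± 0.53 to 7.25 ± 0.39 TPM (0.64, limma FDR 0.0015). Both stayed under the limit for a call and passed the FDR in all 14 alternatives. MAP2K1 (0.05) and MAPK3 (0.09), named after their values were seen, did not pass and lay at -0.12 and -0.08 with totals without the mtDNA-encoded mRNAs.

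Among the 4 tested genes of the other MAPK phosphatases, 1 rose, 1 fell and 2 did not pass, and with totals without the mtDNA-encoded mRNAs 0 passed as higher and 1 as lower. DUSP9, a cytoplasmic phosphatase of ERK close to DUSP6, was at 20.83, 22.18 and 23.27 TPM across CON, and at 9.71, 11.12 and 13.33 TPM across CDCA. The groups were well apart, and the log2 fold change was -0.91 (limma FDR 0.00063). DUSP9 was called lower with totals without the mtDNA-encoded mRNAs (-1.07) and without CDCA replicate 3 (-1.02). DUSP8, which acts on JNK and p38, did not pass, at 2.65 TPM in CON and 4.21 TPM in CDCA (0.51, limma FDR 0.052). DUSP10 was the gene that passed with a higher value, named after its values were seen (0.33, limma FDR 0.047). Its mean was 0.85 TPM in CON and 1.32 TPM in CDCA, so it reached the filter of 1 TPM only through the group where it was higher, and its FDR was 0.05 or more in all but 2 of the 14 alternatives, each library left out in turn included.

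Of the 6 tested genes among the other feedback inhibitors, 1 rose, 1 fell and 4 did not pass, and with totals without the mtDNA-encoded mRNAs 1 passed as higher and 2 as lower. SPRY1, a Sprouty gene like SPRY4, was at 8.71, 9.26 and 9.24 TPM across CON, and at 3.33, 3.10 and 3.87 TPM across CDCA. The groups were far apart, and the log2 fold change was -1.19 (SE 0.09, limma FDR 6.9e-05). SPRY1 was the gene of the pathway lists that was called, in all alternatives but the highest listed transcript (-0.99). ERRFI1, which encodes an inhibitor that binds the kinase domain of EGFR itself, rose from 11.3 ± 0.53 to 20.5 ± 1.8 TPM (SD, n = 3 each), a log2 fold change of 0.80 (limma FDR 0.00019). SPRY2, named after its values were seen, was at 48.3 and 49.7 TPM (0.04, limma FDR 0.41), and its sign turned with median ratio scaling, with the highest listed transcript and with totals without the mtDNA-encoded mRNAs, where it passed as lower (-0.13, limma FDR 0.027).

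The genes that ERK is known to induce were split as well, with 3 higher, 3 lower and 3 not passing of 9 tested, and a median of -0.07. With totals without the mtDNA-encoded mRNAs, 3 were higher and 4 lower, and CCND1 had a larger change in size (-0.76) than IER3 (0.68). IER3, an immediate-early gene of cell survival, went from 33.2 ± 0.61 to 60.6 ± 3.3 TPM (0.85, limma FDR 3.4e-05), and ETV5, an ETS transcription factor, from 7.56 ± 0.31 to 12.9 ± 0.032 TPM (0.70, limma FDR 0.00010). EPHA2 (0.38), CCND1 (-0.59), IER2 (-0.49) and FOSL1 (-0.24) complete the counts and were named after their values were seen. EGR1, an immediate-early gene like DUSP1, was also listed at 0 in all 6 libraries.

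**Figure D4:**
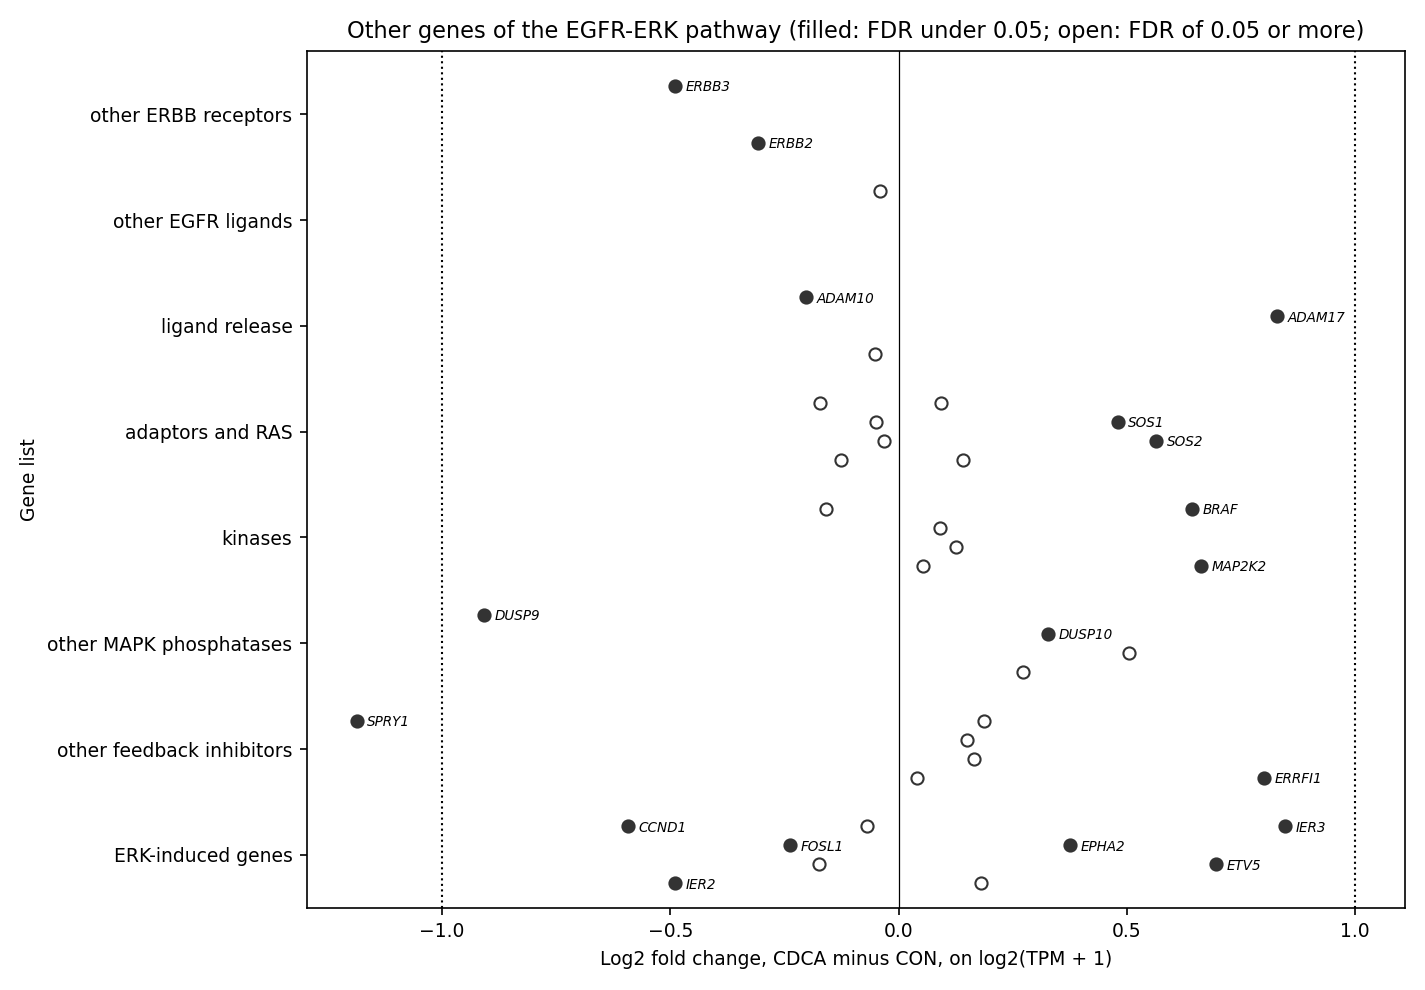
Log2 fold change (x axis, CDCA minus CON on log2(TPM + 1)) of tested genes of the pathway outside the 10 genes, by list (y axis, points spread within a list for legibility). Filled points passed an FDR of 0.05 by limma and are named, open points did not, and dotted lines mark the limit of 1 in size; SPRY1 at -1.19 is the point beyond it, and MAP2K2, BRAF and both SOS genes lie to the right of 0.

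**Figure D5:**
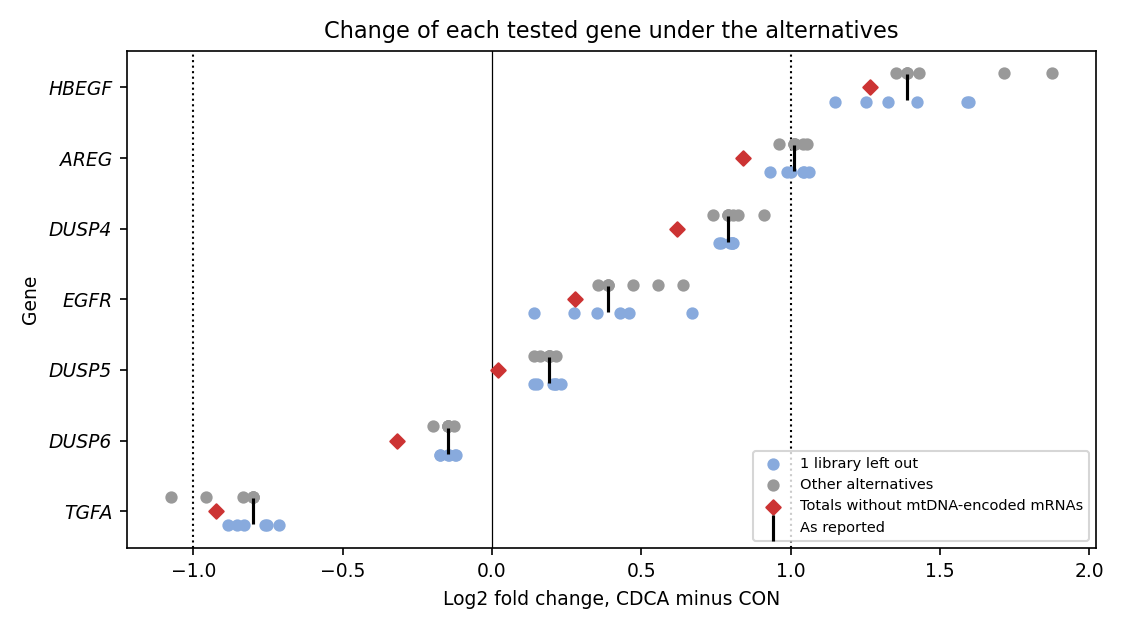
Log2 fold change (x axis, CDCA minus CON) of the 7 tested genes as reported (black line) and under the 14 alternatives: blue points leave out 1 library, red diamonds use totals without the mtDNA-encoded mRNAs and grey points are the others. HBEGF stays to the right of 1 and TGFA to the left of 0, AREG straddles 1, and DUSP5 comes to 0.02 at its red diamond.

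The plot of the alternatives shows how firmly each value stands. No alternative reversed the direction of any of the 7 genes. HBEGF, AREG, DUSP4 and TGFA passed the FDR in all 14, whereas EGFR passed in 1, DUSP5 in 4 and DUSP6 in 6.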

How the data were processed

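RNA-seq of 6 libraries was compared, 3 of each group as labelled. RSEM was used by the authors, and the deposited values are TPM per listed transcript, without read counts, so depth is unknown and no counting interval could be given. The submitters' processing notes name Bowtie 0.12.2 and the mouse build mm10, whereas the gene IDs are those of pig; this was not settled here, and no coordinates are given. TPM were summed per gene ID. Genes whose mean reached 1 TPM were tested on log2(TPM + 1) with limma 3.58.1 (lmFit, eBayes with trend, two-sided) in R 4.3.3, with FDR over all 8708 tested genes. The edgeR test of the study's methods needs counts and was not used. The fitting step was run on simulated data with changes of known size. Those data held no shift of the mtDNA-encoded share and no missing transcripts, so they cannot show how these affect the results. The genes, lists and alternatives were chosen with earlier results of these data known. Named were the 10 genes, called genes of the pathway lists, the 2 largest changes of each list and the 3 closest profiles to the largest rise and fall; others are said to have been named later. The alternatives were a pseudocount of 0.1 TPM, no filter, totals without mtDNA-encoded mRNAs, listed TPM rescaled to 1000000, median ratio scaling, the highest listed transcript, limma without trend, the replicate number as a block, and each library left out. Ratios within libraries and single transcripts were added after seeing the data, without tests. The results for 3 genes of the pathway lists are not reported here, although the total counts of these lists include them.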

Additional observations from a re-analysis of the deposited data

How the results depend on the processing

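Of the 10 genes, 2 were called higher, and 1 (HBEGF) with totals without the mtDNA-encoded mRNAs and with median ratio scaling. Leaving out 1 library at a time, 1 to 2 were called higher. With a pseudocount of 0.1 TPM, 1 (TGFA) was called lower, against 0. The count of genes with a lower value and an FDR under 0.05 was 2, and 1 (TGFA) with no filter on low values, with listed TPM rescaled to 1000000, with limma without trend and with the replicate block, and 1 to 2 with each library left out. Of the pathway lists, 1 gene (ADAM17) in place of 0 was called higher with a pseudocount of 0.1 TPM, with rescaled TPM and with the highest listed transcript, and 0 to 1 with each library left out. Called lower was 1 gene (SPRY1), 2 with totals without the mtDNA-encoded mRNAs, 0 with the highest listed transcript and 1 to 2 with each library left out. Same-numbered libraries did not deviate together (correlations of -0.092 to -0.035 over genes), so the numbers are not read as pairs. With the replicate number as a block, 309 of all tested genes were called higher and 343 lower, against 306 and 340. The count of all genes called higher and lower was 211 and 464 with totals without the mtDNA-encoded mRNAs, so that 31.3% rather than 47.4% of called genes were higher, 509 and 505 with a pseudocount of 0.1 TPM, and 523 and 481 with rescaled TPM. The depth behind low values such as those of EREG and SPRY4 is unknown.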

Other observations

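Over the 6 libraries, the tested genes whose log2(TPM + 1) profile, centred on its own mean, lay closest to that of HBEGF were DHRS1 (root mean square difference 0.234, log2 fold change 1.36), WASHC1 (0.239, log2 fold change 1.05) and RIOK3 (0.240, log2 fold change 1.48). Closest to TGFA were GALNT14 (root mean square difference 0.0407, log2 fold change -0.80), CDC25A (0.0577, log2 fold change -0.76) and SKP2 (0.0656, log2 fold change -0.85). CDC25A encodes a phosphatase that activates cyclin-dependent kinases, and SKP2 a ubiquitin ligase subunit that acts in the cell cycle. The CON libraries held CDC25A at 2.59, 1.99 and 1.70 TPM, and the CDCA libraries at 0.63, 1.07 and 0.77 TPM. These are likenesses over 6 libraries of 2 groups, which any gene with a like difference between the groups shares, and no test was made.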
